A study of Mus musculus with 9 samples.

Results

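The genes described here encode the enzymes and complexes that write, erase, read and remodel chromatin, and the repressors that silence genes and retroelements. They were chosen by gene symbol, as the members of families such as Ezh, Kdm, Hdac, Sirt, Dnmt, Tet, Smarc, Chd, Brd, Cbx, Phf and Setd, with Setdb1 left out. The rule itself uses no measured value, but it was chosen with earlier results of these data known. Of the 180 mouse genes with such a symbol in the GENCODE M21 annotation, 81 were in the table of 5301 genes, and the other 99 were not analysed here. The 81 genes were sorted by function into 9 groups, which are described in turn.

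Expression was measured by RNA-seq of total RNA from 6DT1 cells, a mouse mammary tumor line that came from an MMTV-Myc tumor and is syngeneic to FVB/NJ mice. The cells were labelled wildtype in genotype, carried a lentiviral construct, were kept in 10 ug/ml puromycin and were harvested 24 hours after seeding. The control cells (shControl) carried a scramble hairpin, and the 2 knockdown (KD) groups, shH4 and shH6, each carried 1 of 2 shRNAs against Resf1. Each group held 3 libraries, from separate dishes of 1 transduced line, so that the spread between libraries did not include the spread between transductions, and the p-values below measure only the spread between dishes. The effect of a hairpin and that of its line cannot be told apart. Markers of a mammary epithelial tumor line were listed in part, with Krt8 at 15453 and Krt18 at 12458 normalized counts in shControl, and the other 5 epithelial markers of 7 were not analysed here.

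Chromatin repressors act in layers. Methylation of lysine 9 of histone H3 and of DNA silences retroelements and constitutive heterochromatin, Polycomb complexes methylate lysine 27 of histone H3 and compact developmental genes, and histone deacetylases remove the acetyl marks that bromodomain proteins read at active genes. Opposing these are acetyltransferases, those demethylases that act on the repressive marks, and ATP-dependent remodellers, which open or reposition nucleosomes. RESF1 is known as a partner of the H3K9 methyltransferase SETDB1 in the repression of endogenous retroviruses in embryonic stem cells, and many of the complexes in this family are altered by mutation in tumors.

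The hairpins that define the KD groups are shown first, because every comparison rests on them. Neither had a full match, on either strand, in a GENCODE M21 transcript of the 81 genes. The reverse complement of H4 was found in 5 of the 11 annotated Resf1 transcripts and that of H6 in 2 of them.
H4 shRNA: TTTCGATTTGTAACATAGGTC
H6 shRNA: AAACAACCAAGTTACCTCAGG

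Promoter windows, the 250 bases before a RefSeq transcript start (GRCm38.p6), were held for 68 of the 81 genes, 93 windows in all. The study connects RESF1 with G-quadruplex (G4) DNA, but proposes that this is mainly in transcribed sequences, not in control elements. Its predicted sites were enriched for G4 with shorter G runs than those searched here. The search of these windows was therefore not aimed at the sites that the study describes. They were searched on both strands for a G4 pattern, which is 4 runs of at least 3 G separated by 1 to 7 bases. Such a pattern was in 29% of the windows of these genes, in 25.8% of 4621 windows of the other protein-coding genes in the table and in 16.7% of all 32851 windows. It was in 28.6% of the windows of genes that were higher in the KD cells and in 30% of those that were lower. The windows of these genes were also richer in GC, at a median of 65.6%, against 60.4% for the other listed genes and 52.4% for all windows.

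A core MYC and E-box motif, CACGTG, was searched as well, and was in 7.53% of the windows, against 8.33% for the other listed genes and 6.02% for all windows. It was in 2 of 63 windows (3.17%) of genes that were higher in the KD cells and in 5 of 30 (16.7%) of those that were lower, counts that are small and were not tested. The motifs TTTCCCGC and TTTGGCGC, which E2F factors bind at promoters of S-phase genes, were in 6 of the 93 windows (6.45%), in the genes Arid1a, Cbx3, Hells, Ing3, Sirt4 and Smarcd1. They were in 2.83% of the windows of the other listed genes and in 1.3% of all windows. The CCAAT box was in 31.2%, 35.8% and 33.8% of these windows. These matches describe the letters of the windows and say nothing of binding.

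The windows of 4 genes are printed as examples, 2 that were higher in the KD cells (Arid1a and Sirt1) and 2 that were lower (Dnmt3a and Hdac5). Sirt1 and Hdac5 have 1 window in the RefSeq table, whereas Arid1a has 2 and Dnmt3a 3, of which only the one with matches is printed. The windows were chosen after their matches were seen, and each printed window holds a G4 pattern and shares no 30 bases with an annotated transcript. All are given 5′ to 3′ on the strand of the gene and end just before the start site. Capitals mark G4 runs, which are runs of G on the strand of the gene or of C where the pattern lies on the other strand, and the CACGTG and E2F motifs. The windows are chr4:133753986-133754235 (minus strand) for Arid1a, chr10:63339036-63339285 (minus strand) for Sirt1, chr12:3891494-3891743 (plus strand) for Dnmt3a and chr11:102230173-102230422 (minus strand) for Hdac5, in GRCm38.p6. In Arid1a the motif TTTCCCGC overlaps a run of C, in Sirt1 2 CACGTG motifs lie among runs of G, and in Dnmt3a CACGTG lies between runs of C.
Arid1a promoter: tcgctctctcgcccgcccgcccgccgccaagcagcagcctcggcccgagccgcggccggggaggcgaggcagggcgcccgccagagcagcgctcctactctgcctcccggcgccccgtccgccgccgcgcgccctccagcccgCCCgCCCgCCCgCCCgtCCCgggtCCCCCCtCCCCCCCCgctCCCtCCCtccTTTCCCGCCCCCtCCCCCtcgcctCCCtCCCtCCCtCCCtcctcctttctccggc
Sirt1 promoter: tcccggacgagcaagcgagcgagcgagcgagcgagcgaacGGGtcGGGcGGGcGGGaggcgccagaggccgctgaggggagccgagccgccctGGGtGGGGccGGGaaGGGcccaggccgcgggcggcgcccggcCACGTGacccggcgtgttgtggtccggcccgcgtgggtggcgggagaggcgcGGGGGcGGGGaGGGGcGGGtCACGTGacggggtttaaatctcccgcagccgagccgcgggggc
Dnmt3a promoter: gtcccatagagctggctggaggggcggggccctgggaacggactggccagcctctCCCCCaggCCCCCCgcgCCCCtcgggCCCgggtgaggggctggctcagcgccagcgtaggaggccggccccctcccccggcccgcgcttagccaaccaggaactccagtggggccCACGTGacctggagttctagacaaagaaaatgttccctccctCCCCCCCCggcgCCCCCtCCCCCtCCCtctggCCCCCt
Hdac5 promoter: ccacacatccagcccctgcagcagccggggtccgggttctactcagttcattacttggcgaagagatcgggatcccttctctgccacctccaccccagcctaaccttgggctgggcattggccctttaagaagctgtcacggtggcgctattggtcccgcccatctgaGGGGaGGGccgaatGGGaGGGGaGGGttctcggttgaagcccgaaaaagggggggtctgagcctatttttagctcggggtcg

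The table had been selected for differences from shControl before deposit, as far as the values show. All 5301 genes moved in 1 direction in both hairpins, and all had a limma adjusted p under 0.05 when the average of the 6 KD libraries was set against shControl. Calls against shControl are therefore read beside the share of all listed genes with the same call. The adjusted p-values against shControl take no account of this selection and are likely too small. They serve here as a threshold, not as independent evidence of a change. The values were normalized counts, with column totals of 13.1 to 13.6 M and an estimated 10.5 to 19.9 M reads per library in the listed genes. Resf1 itself, the check of the labels, was at 1591, 1553 and 1610 in shControl, 976, 953 and 1016 with shH4 and 1120, 1113 and 1130 with shH6 (replicates 1 to 3, here and below), with a log2 fold change of −0.69 with shH4 and −0.50 with shH6. No KD library reached the shControl range.

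To determine how chromatin genes changed with Resf1 depletion, each hairpin was compared with shControl. Most of the 81 genes were modestly higher in the KD cells. In shH4, 54 genes rose (66.7%) and 23 fell (28.4%), where "rose" and "fell" mean a limma adjusted p under 0.05, against 49.2% and 46.5% of all 5301 genes. In shH6, 55 rose (67.9%) and 23 fell (28.4%), against 49.1% and 46.9%. Both hairpins called 52 of the genes higher (64.2%) and 22 lower (27.2%), against 47.2% and 44.6% of all genes, and the 2 comparisons share the shControl libraries. A larger share of the chromatin genes than of all listed genes was thus called higher, as a description with no test.

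The groups of libraries were also compared without a test. All 6 KD libraries lay above all 3 shControl libraries for 47 genes (58%) and below them for 21 (25.9%), against 43.5% and 42.8% of all genes, and the libraries overlapped for 13 genes. Of the 81 genes, 57 had positive and 24 negative changes. The median log2 fold change was 0.18 in each hairpin, against 0.096 in shH4 and 0.088 in shH6 for all genes. After upper quartile scaling it was 0.12 in shH4 and 0.13 in shH6, when the median of all genes shifted by −0.061 and −0.052. Changes were small: 48 genes in shH4 and 49 in shH6 changed by less than 1.2-fold, and 5 and 4 by more than 1.5-fold. Of all listed genes, 12.5% and 13.1% changed by more than 1.5-fold, against 6.17% and 4.94% of the chromatin genes. Every single KD library showed the shift, with a median log2 difference from the shControl mean between 0.157 and 0.174 over the 81 genes. The change of each gene is shown by function in the plot of log2 fold changes.

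**Figure D1:**
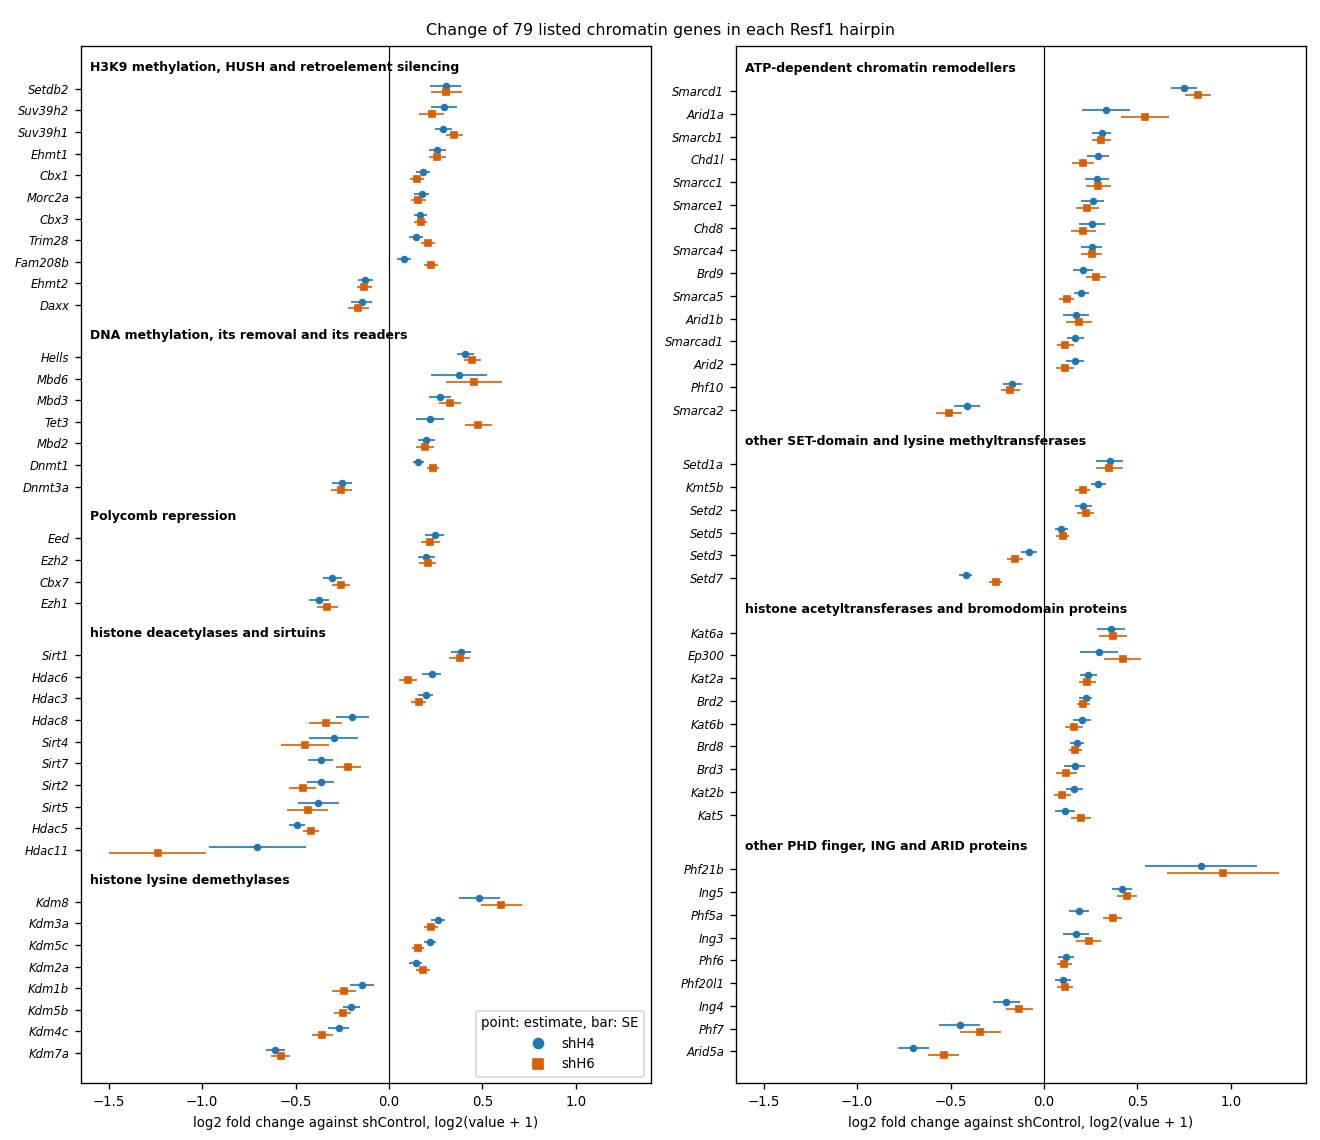
Log2 fold change against shControl, on the log2(value + 1) scale (x axis), of 79 of the 81 genes (y axis), in shH4 (circles) and shH6 (squares), with bars for the SE of the fit. Each gene lies on the same side of 0 in both hairpins, as all genes of the table do, with 56 genes above 0 and 23 below, and Hdac11 and Phf21b have the longest bars.

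The direction varied between the functional groups. Acetyltransferases and bromodomain proteins were all above 0, remodellers, DNA methylation genes and H3K9 silencing genes were mostly higher, and histone deacetylases and sirtuins were mostly lower. Polycomb genes and demethylases were divided, as the listed genes as a whole were. Each count of a group that follows is read against the shares of all 5301 genes, 49.2% higher and 46.5% lower in shH4 and 49.1% and 46.9% in shH6. The groups are small, and their counts are descriptions with no test of their own.

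**Figure D2:**
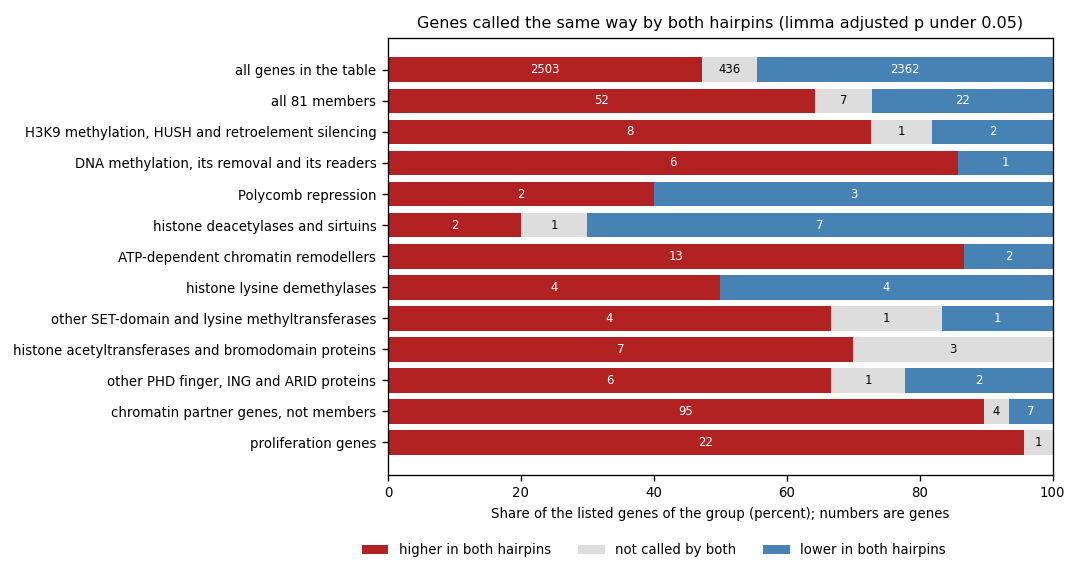
Share (x axis, percent) of the listed genes of each group (y axis) that both hairpins called higher (red), lower (blue) or did not both call (grey), with the number of genes in each bar. Of the 81 genes, 64.2% were higher and 27.2% lower in both, against 47.2% and 44.6% of all 5301 genes, and the deacetylases and sirtuins are the group with the most genes lower, at 7 of 10.

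H3K9 methylation and retroelement silencing was examined first, since RESF1 is known to act with SETDB1 there in embryonic stem cells. In breast cancer lines, the study saw no change of retroelement RNA or of global H3K9 trimethylation after Resf1 KD. It proposes that its metastasis phenotype is unrelated to SETDB1 or to retroviruses. Of 22 annotated genes in the H3K9 silencing group, 11 were listed. In shH4, 8 of the 11 rose and 2 fell, against 49.2% and 46.5% of all listed genes, and in shH6, 9 rose and 2 fell, against 49.1% and 46.9%. Both SUV39H enzymes, which trimethylate H3K9 in constitutive heterochromatin, were higher. Suv39h1, in normalized counts, was at 1497, 1475 and 1447 in shControl, 1906, 1805 and 1698 with shH4 and 1834, 1948 and 1847 with shH6, with all KD libraries above all shControl libraries. Its log2 fold change was 0.29 with shH4 (SE 0.046, limma adjusted p = 4.03e-05) and 0.35 with shH6 (SE 0.046, limma adjusted p = 6.39e-06). Suv39h2 was less abundant, at 381, 394 and 376 in shControl, 514, 463 and 439 with shH4 and 437, 457 and 455 with shH6, with a log2 fold change of 0.30 with shH4 (SE 0.068, limma adjusted p = 9.46e-04) and 0.23 with shH6 (SE 0.068, limma adjusted p = 0.00519). Setdb2, a SET-domain relative of SETDB1, was at 251, 219 and 240 in shControl, 317, 285 and 276 with shH4 and 291, 307 and 279 with shH6 and rose by 0.30 with shH4 and 0.31 with shH6 on the log2 scale.

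The readers and corepressors of this mark rose less. Trim28, the corepressor that KRAB zinc finger proteins bring to retroelements, had the highest level per transcript length of all 11 genes in shControl (2659 normalized counts per kb) and was at 8464, 8530 and 8891 in shControl, 9574, 9963 and 9099 with shH4 and 9635, 10039 and 10249 with shH6. The change on the log2 scale was 0.15 with shH4 (SE 0.039, limma adjusted p = 0.00261) and 0.21 with shH6 (SE 0.039, limma adjusted p = 1.51e-04). Cbx1 and Cbx3, which encode the heterochromatin proteins HP1 beta and HP1 gamma, rose by 0.18 and 0.15 and by 0.17 and 0.17 in shH4 and shH6. Morc2a, an ATPase that works with the HUSH silencing complex, rose by 0.18 with shH4 and 0.16 with shH6. Fam208b, a relative of a HUSH subunit, was not past the threshold in shH4 (log2 fold change 0.081, limma adjusted p = 0.0506) and rose in shH6 (0.23, limma adjusted p = 7.28e-05).

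The euchromatic H3K9 methyltransferases, which form a heterodimer, moved apart. Ehmt1 (GLP) was at 1710, 1691 and 1666 in shControl, 2041, 1950 and 2068 with shH4 and 2014, 1909 and 2150 with shH6, above shControl in every KD library, with a log2 fold change of 0.26 with shH4 (SE 0.045, limma adjusted p = 1.00e-04) and 0.26 with shH6 (SE 0.045, limma adjusted p = 9.01e-05). Ehmt2 (G9a) was at 6886, 6455 and 6936 in shControl, 5959, 6580 and 6038 with shH4 and 6201, 6178 and 6097 with shH6, and shH4 replicate 2 overlapped the shControl range. On the log2 scale it differed from shControl by −0.13 with shH4 (SE 0.040, limma adjusted p = 0.00795) and −0.13 with shH6 (SE 0.040, limma adjusted p = 0.00576). Daxx, a chaperone that deposits histone H3.3 at silent repeats, was the other gene of this group that fell, at 781, 852 and 792 in shControl, 747, 750 and 693 with shH4 and 732, 742 and 688 with shH6, with log2 fold changes of −0.15 with shH4 and −0.17 with shH6. Without shControl replicate 2, the change of Daxx was not past the threshold in either hairpin (limma adjusted p = 0.103 in shH4 and 0.0612 in shH6), and without shH4 replicate 3 it was lost in shH4.

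DNA methylation genes followed, with 7 of 17 listed, of which 6 rose and 1 fell in each hairpin. Maintenance and de novo enzymes went in opposite directions. Dnmt1, which copies methylation onto newly made DNA, was at 8142, 8133 and 8048 in shControl, 9101, 9009 and 9012 with shH4 and 9450, 9556 and 9624 with shH6, a narrow rise with a log2 fold change of 0.16 with shH4 (SE 0.030, limma adjusted p = 2.07e-04) and 0.24 with shH6 (SE 0.030, limma adjusted p = 4.45e-06). Dnmt3a, which sets new methylation, was at 1338, 1340 and 1407 in shControl, 1147, 1076 and 1207 with shH4 and 1219, 1073 and 1135 with shH6 and fell (−16% with shH4 and −16.1% with shH6), with each KD library under the shControl range. The fitted log2 change was −0.25 with shH4 (SE 0.054, limma adjusted p = 5.61e-04) and −0.26 with shH6 (SE 0.054, limma adjusted p = 5.04e-04). Dnmt3b was not analysed here.

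Hells (LSH), a remodeller needed for DNA methylation of repeats, had the largest rise of this group with shH4. It was at 2041, 1975 and 2170 in shControl, 2886, 2704 and 2621 with shH4 and 2784, 2881 and 2755 with shH6, and the groups did not overlap. The log2 fold change was 0.41 with shH4 (SE 0.045, limma adjusted p = 9.58e-07) and 0.45 with shH6 (SE 0.045, limma adjusted p = 3.76e-07). Of the methyl-CpG binding domain genes, Mbd2 rose by 0.20 with shH4 and 0.19 with shH6, Mbd3, a subunit of the NuRD corepressor, by 0.27 with shH4 and 0.33 with shH6 and Mbd6 by 0.37 with shH4 and 0.46 with shH6. Tet3, which oxidises methylated cytosine, rose by 0.22 with shH4 and 0.48 with shH6 and is taken up again with the comparison between the hairpins. The call of Mbd6 in shH4 was lost after upper quartile scaling, without shControl replicate 1 and without shH4 replicate 2 or 3 (limma adjusted p up to 0.114). Without shH6 replicate 3 its change in shH6 was 0.28 (limma adjusted p = 0.0611). The call of Tet3 in shH4 was lost after upper quartile scaling and without shH4 replicate 3 (limma adjusted p up to 0.0551).

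Among Polycomb genes, 5 of 14 were listed, of which 2 rose and 3 fell in each hairpin, near the shares of all listed genes (49.2% and 46.5% in shH4, 49.1% and 46.9% in shH6). The alternative catalytic subunits of Polycomb repressive complex 2 moved in opposite directions. Ezh2, the form linked with dividing cells, was at 1617, 1701 and 1741 in shControl, 1947, 1879 and 1979 with shH4 and 1928, 1862 and 2053 with shH6. Its log2 fold change was 0.20 with shH4 (SE 0.045, limma adjusted p = 8.35e-04) and 0.21 with shH6 (SE 0.045, limma adjusted p = 5.76e-04). Ezh1, the form linked with resting cells, was at 937, 944 and 874 in shControl, 749, 692 and 685 with shH4 and 721, 742 and 727 with shH6, and its log2 fold change was −0.37 with shH4 (SE 0.054, limma adjusted p = 1.63e-05) and −0.33 with shH6 (SE 0.054, limma adjusted p = 5.04e-05). In neither gene did a KD library reach the shControl range. Eed, the subunit that reads the mark and is shared by both forms, rose by 0.24 with shH4 and 0.22 with shH6. Cbx7, a chromodomain reader of Polycomb repressive complex 1, fell (−19% with shH4 and −16.4% with shH6).

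Histone deacetylases and sirtuins were the group in which most genes fell. Of 18 annotated genes, 10 were listed, and 7 of them fell in each hairpin, while 3 rose in shH4 and 2 in shH6. The median change was −0.33 (log2) with shH4 and −0.38 with shH6. Hdac5, a class IIa deacetylase that shuttles between nucleus and cytoplasm, was at 1947, 1909 and 1897 in shControl, 1375, 1377 and 1340 with shH4 and 1359, 1467 and 1488 with shH6, and all KD libraries were well below shControl. The change on the log2 scale was −0.49 with shH4 (SE 0.043, limma adjusted p = 9.72e-08) and −0.42 with shH6 (SE 0.043, limma adjusted p = 5.20e-07). Hdac11 was low throughout, at 53.3, 48.6 and 67.6 in shControl, 30.8, 26.4 and 47.9 with shH4 and 24.5, 32.5 and 15.5 with shH6. It fell (−38% with shH4 and −57.2% with shH6), with a log2 fold change of −0.71 with shH4 (SE 0.26, limma adjusted p = 0.0178) and −1.24 with shH6 (SE 0.26, limma adjusted p = 4.63e-04), the widest error of the group.

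Of the sirtuins that fell, Sirt4 and Sirt5 are known as mitochondrial, Sirt2 as mostly cytoplasmic and Sirt7 as nucleolar. Sirt5 was at 208, 197 and 228 in shControl, 169, 155 and 161 with shH4 and 172, 165 and 132 with shH6, with no overlap between KD and shControl, and fell (−23.4% with shH4 and −25.9% with shH6). On the log2 scale it differed from shControl by −0.38 with shH4 (SE 0.11, limma adjusted p = 0.00382) and −0.44 with shH6 (SE 0.11, limma adjusted p = 0.00144). The log2 fold change was −0.37 and −0.46 for Sirt2, −0.37 and −0.22 for Sirt7, −0.30 and −0.45 for Sirt4 and −0.20 and −0.34 for the class I enzyme Hdac8, in shH4 and shH6. The number of genes in this group called lower in shH4 was 4 in place of 7 without shH4 replicate 1, when Hdac11, Sirt4 and Hdac8 lost their call. These 3 calls were also lost without other single libraries, that of Hdac11 without shControl replicate 3 or shH4 replicate 2, that of Sirt4 without shControl replicate 1 or 3, and that of Hdac8 without shControl replicate 1 or shH4 replicate 2.

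The deacetylases that rose were nuclear Sirt1, nuclear Hdac3 and the tubulin deacetylase Hdac6. Sirt1 was at 564, 601 and 604 in shControl, 768, 750 and 791 with shH4 and 792, 730 and 777 with shH6, clear of shControl in each KD library, with a log2 fold change of 0.38 with shH4 (SE 0.055, limma adjusted p = 1.47e-05) and 0.38 with shH6 (SE 0.055, limma adjusted p = 1.63e-05). Hdac3, the catalytic partner of the NCoR and SMRT corepressors and the gene of this group with the highest level per length (547 normalized counts per kb in shControl), was at 1977, 1929 and 1977 in shControl, 2314, 2158 and 2263 with shH4 and 2166, 2211 and 2187 with shH6. It rose by 14.5% with shH4 and 11.6% with shH6, or 0.20 with shH4 (SE 0.038, limma adjusted p = 2.70e-04) and 0.16 with shH6 (SE 0.038, limma adjusted p = 0.00128) on the log2 scale. Hdac6 rose by 0.23 in shH4 and was not past the threshold in shH6 (0.10, limma adjusted p = 0.0581). Hdac1 and Hdac2 were not analysed here.

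Histone acetyltransferases and bromodomain proteins had 10 of 15 genes listed, all 10 with positive changes in both hairpins. In shH4, 8 rose and in shH6, 9 rose, and 7 rose in both. Ep300, a broad coactivator acetyltransferase, was at 941, 1078 and 1047 in shControl, 1137, 1196 and 1442 with shH4 and 1283, 1192 and 1665 with shH6. The fitted log2 change was 0.30 with shH4 (SE 0.10, limma adjusted p = 0.0115) and 0.42 with shH6 (SE 0.10, limma adjusted p = 0.00118), and shH6 replicate 3 was the highest of all 9 libraries. Without shH4 replicate 3 the change with shH4 was 0.19 and was not past the threshold (limma adjusted p = 0.0862). Kat6a and Kat6b, related acetyltransferases of histone H3, rose by 0.36 and 0.37 and by 0.20 and 0.16 in shH4 and shH6, and Kat2a (GCN5) by 0.24 and 0.23. Kat2b (PCAF) rose in shH4 only at the threshold used, with changes of 0.16 and 0.098 (limma adjusted p = 0.0515 in shH6, and 0.0551 in shH4 after upper quartile scaling), and Kat5 (TIP60) in shH6 only, with 0.11 and 0.20 (limma adjusted p = 0.0553 in shH4). These differences between hairpins were not past the threshold when tested directly.

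Brd2 and Brd3 are BET proteins, which bind acetylated histones. Brd2, the gene of this group with the highest level per length (959 normalized counts per kb in shControl), was at 4404, 4555 and 4434 in shControl, 5165, 5322 and 5135 with shH4 and 4964, 5260 and 5260 with shH6. Its log2 fold change was 0.22 with shH4 (SE 0.035, limma adjusted p = 3.79e-05) and 0.21 with shH6 (SE 0.035, limma adjusted p = 6.30e-05), with no overlap between the groups. Brd3 rose by 0.16 with shH4 and 0.12 with shH6, the latter with a limma adjusted p of 0.0459 that passed the threshold in 8 of 17 alternative settings, and the call with shH4 was lost after upper quartile scaling (limma adjusted p = 0.0864). Brd8, a subunit of the TIP60 complex, rose by 0.18 with shH4 and 0.17 with shH6.

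ATP-dependent remodellers had the most genes listed, 15 of 29, of which 13 rose and 2 fell in each hairpin. The SWI/SNF (BAF) complex, which slides and ejects nucleosomes, accounted for most of them. Smarcd1 (BAF60a), 1 of its accessory subunits, had the largest rise of the 81 genes after Phf21b. It was at 307, 317 and 330 in shControl, 546, 578 and 483 with shH4 and 559, 558 and 574 with shH6, and its log2 fold change was 0.75 with shH4 (SE 0.070, limma adjusted p = 1.85e-07) and 0.82 with shH6 (SE 0.070, limma adjusted p = 6.72e-08). The core subunits Smarcb1, Smarcc1 and Smarce1 rose by 0.31 and 0.31, by 0.28 and 0.29 and by 0.26 and 0.23 in shH4 and shH6.

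The alternative ATPases of this complex moved in opposite directions. Smarca4 (BRG1), the gene of the group with the highest level per length (591 normalized counts per kb in shControl), was at 3519, 3843 and 3941 in shControl, 4352, 4591 and 4534 with shH4 and 4337, 4200 and 4973 with shH6. It rose with a log2 fold change of 0.26 with shH4 (SE 0.055, limma adjusted p = 5.47e-04) and 0.26 with shH6 (SE 0.055, limma adjusted p = 5.16e-04). Smarca2 (BRM) was at 633, 648 and 677 in shControl, 485, 459 and 527 with shH4 and 503, 446 and 429 with shH6 and fell, with a log2 fold change of −0.41 with shH4 (SE 0.071, limma adjusted p = 8.32e-05) and −0.51 with shH6 (SE 0.071, limma adjusted p = 1.12e-05). All 6 KD libraries were above shControl for the first gene and below it for the second.

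Arid1a and Arid1b, by contrast, moved in the same direction. Arid1a, which defines canonical BAF together with its paralogue Arid1b, was at 606, 730 and 811 in shControl, 773, 874 and 1062 with shH4 and 965, 891 and 1288 with shH6. The change on the log2 scale was 0.33 with shH4 (SE 0.13, limma adjusted p = 0.0201) and 0.54 with shH6 (SE 0.13, limma adjusted p = 0.001), and shH4 replicate 1 overlapped shControl. Its call with shH4 was lost after upper quartile scaling, without shControl replicate 1 and without shH4 replicate 3. Arid1b rose by 0.17 with shH4 and 0.19 with shH6, and lost its call in both hairpins after upper quartile scaling or without shControl replicate 1, and in each hairpin without replicate 3 of that group (limma adjusted p up to 0.181 and 0.131). Arid2, which defines the PBAF form, rose by 0.17 with shH4 and 0.11 with shH6, the latter not past the threshold after upper quartile scaling, without shControl replicate 2 or without shH6 replicate 3. Brd9, of the non-canonical form, rose by 0.21 with shH4 and 0.28 with shH6, while Phf10, another PBAF subunit, fell (−11% with shH4 and −11.8% with shH6). Outside SWI/SNF, the ISWI ATPase Smarca5, Smarcad1, Chd1l and Chd8 rose, by 0.20 and 0.12, 0.17 and 0.11, 0.29 and 0.21 and 0.26 and 0.21 in shH4 and shH6. With shH6, the calls of Smarca5 (without shH6 replicate 1 or 2) and Smarcad1 (without shControl replicate 2 or 3 or shH6 replicate 1 or 2) were lost, both also after upper quartile scaling, with limma adjusted p up to 0.121 and 0.211. That of Chd8 was lost without shH6 replicate 3 (0.14, limma adjusted p = 0.0544).

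Of the histone demethylases, 8 of 20 were listed, 4 higher and 4 lower in each hairpin, close to the share of all listed genes (49.2% higher and 46.5% lower in shH4, 49.1% and 46.9% in shH6). Kdm7a, which removes methyl groups from H3K9 and H3K27, fell most. It was at 2989, 2841 and 2949 in shControl, 1830, 1818 and 2123 with shH4 and 1975, 1977 and 1923 with shH6, lower in every KD library, with a log2 fold change of −0.61 with shH4 (SE 0.051, limma adjusted p = 5.72e-08) and −0.58 with shH6 (SE 0.051, limma adjusted p = 1.03e-07). Kdm4c, another H3K9 demethylase, fell (−17.1% with shH4 and −21.8% with shH6). Kdm5b and Kdm1b, which act on H3K4, fell as well, with changes of −13% with shH4 and −15.9% with shH6 for the former and −9.45% with shH4 and −15.5% with shH6 for the latter. The change of Kdm1b in shH4 lost its call in 6 of 17 alternative settings, 5 of which left out a library (shControl replicate 1 or 2, shH4 replicate 2 or 3 or shH6 replicate 1).

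The demethylases that rose were Kdm8, Kdm3a, Kdm5c and Kdm2a. Kdm8 (JMJD5), a JmjC protein best known as an arginine hydroxylase, was low, at 119, 104 and 93.0 in shControl, 139, 162 and 142 with shH4 and 149, 166 and 165 with shH6, with no overlap and a log2 fold change of 0.48 with shH4 (SE 0.11, limma adjusted p = 0.00105) and 0.60 with shH6 (SE 0.11, limma adjusted p = 1.77e-04). Kdm3a, which acts on H3K9, rose by 0.26 with shH4 and 0.22 with shH6, and Kdm2a, a CpG-binding H3K36 demethylase, by 0.14 with shH4 and 0.18 with shH6. Kdm5c, an H3K4 demethylase with the highest level per length of this group (642 normalized counts per kb in shControl), was at 4236, 4115 and 4075 in shControl, 4866, 4849 and 4758 with shH4 and 4574, 4590 and 4676 with shH6. It rose by 16.5% with shH4 and 11.4% with shH6, or 0.22 with shH4 (SE 0.033, limma adjusted p = 2.08e-05) and 0.16 with shH6 (SE 0.033, limma adjusted p = 4.15e-04) on the log2 scale. Relatives with a shared target thus went both ways, Kdm3a against Kdm4c for H3K9 and Kdm5c against Kdm5b for H3K4.

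Of the other SET-domain and lysine methyltransferases, 6 of 16 were listed, with 4 rising and 1 falling in shH4 and 4 rising and 2 falling in shH6. Setd1a, a catalytic subunit of COMPASS that methylates H3K4, rose by 0.35 with shH4 and 0.35 with shH6, Kmt5b, which methylates histone H4, by 0.29 with shH4 and 0.21 with shH6 and Setd2, which sets H3K36 trimethylation, by 0.21 with shH4 and 0.22 with shH6. Setd5, the highest of the group per length (1022 normalized counts per kb in shControl), was at 6827, 7034 and 6851 in shControl, 7222, 7344 and 7515 with shH4 and 7409, 7121 and 7668 with shH6, a small rise of 6.61% with shH4 and 7.18% with shH6 that was lost after upper quartile scaling (limma adjusted p = 0.397 and 0.203) and, with shH4, without shControl replicate 1 or 3 or shH4 replicate 3 and, with shH6, without shH6 replicate 3. Setd3, which methylates actin rather than histones, had a change of −0.083 in shH4 (limma adjusted p = 0.0735) and fell by 0.16 in shH6 on the log2 scale (limma adjusted p = 0.00349). Setd7, which methylates H3K4 and other proteins, fell (−25.2% with shH4 and −16.4% with shH6).

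The last group held other PHD finger, ING and ARID proteins, 9 of 29 listed, of which 6 rose in each hairpin and 3 fell in shH4 and 2 in shH6. Ing5, a subunit of acetyltransferase complexes, was at 1016, 989 and 1011 in shControl, 1428, 1231 and 1376 with shH4 and 1372, 1405 and 1324 with shH6, all KD libraries above shControl. On the log2 scale it differed from shControl by 0.42 with shH4 (SE 0.053, limma adjusted p = 4.43e-06) and 0.44 with shH6 (SE 0.053, limma adjusted p = 2.18e-06). Arid5a, known for binding and stabilising mRNA of inflammatory genes, was at 362, 388 and 373 in shControl, 205, 240 and 247 with shH4 and 265, 262 and 246 with shH6, lower in every KD library. The fitted log2 change was −0.70 with shH4 (SE 0.083, limma adjusted p = 2.29e-06) and −0.54 with shH6 (SE 0.083, limma adjusted p = 3.02e-05). Phf21b was near the lower limit of the table, at 8.88, 14.2 and 6.65 in shControl, 15.8, 24.2 and 14.7 with shH4 and 19.1, 17.8 and 21.2 with shH6, and was the only gene of the 81 under 10 normalized counts in any library. It had the largest rise, 0.84 with shH4 (SE 0.30, limma adjusted p = 0.0153) and 0.96 with shH6 (SE 0.30, limma adjusted p = 0.00739), and was not past the threshold in shH4 without shControl replicate 3 or without shH4 replicate 2.

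Smaller changes completed this group. Phf7 fell (−26.8% with shH4 and −20.8% with shH6). Ing4, which reads H3K4 methylation as Ing5 does, fell by 0.20 in shH4 on the log2 scale and had a change of −0.13 in shH6 (limma adjusted p = 0.0860). Ing3, a TIP60 subunit, rose by 0.17 with shH4 and 0.24 with shH6, Phf6 by 0.12 with shH4 and 0.11 with shH6 and Phf20l1 by 0.10 with shH4 and 0.11 with shH6. The calls of Phf6 and Phf20l1 in both hairpins, and of Ing3 in shH4, were lost after upper quartile scaling. They were also lost without some single libraries (shControl replicate 1 or replicate 1 of the hairpin group for Phf6, shControl replicate 3 or shH4 replicate 1 or 2 for Ing3). The call of Phf20l1 was lost without shControl replicate 1 or 2 or shH4 replicate 1 or 3 in shH4, and without shControl replicate 2 or shH6 replicate 1 in shH6, and that of Ing4 in shH4 without shControl replicate 3 or shH4 replicate 1. Phf5a, a splicing factor subunit despite its PHD-like fold, was higher too and is described with the hairpins below.

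Paralogues or alternative subunits were then set against each other within each library, which removes the scaling of the library. The ratio was taken per longest annotated transcript, so its level depends on that length and its change does not. The ratio of Ezh2 to Ezh1 was 2.61, 2.72 and 3.01 in shControl, 3.92, 4.10 and 4.36 with shH4 and 4.04, 3.79 and 4.26 with shH6. The ratio of Smarca4 to Smarca2 was 5.16, 5.50 and 5.41 in shControl, 8.34, 9.28 and 7.99 with shH4 and 8, 8.75 and 10.8 with shH6. Both ratios were higher in each KD library than in any shControl library.

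The same held for DNA and H3K9 methyltransferases. The ratio of Dnmt1 to Dnmt3a was 9.83 ± 0.341 in control cells, 13.1 ± 0.748 with shH4 and 13.8 ± 0.958 with shH6 (SD, n = 3 per group). The ratio of Ehmt1 to Ehmt2 was 0.169 ± 0.00742, 0.221 ± 0.0181 and 0.222 ± 0.0150 in the same order. For the other pairs the shH4 and shControl libraries overlapped, whereas all shH6 libraries lay above all shControl libraries. The ratio of Suv39h1 to Suv39h2 was 5.33 ± 0.132, 5.31 ± 0.141 and 5.79 ± 0.145, and that of Arid1a to Arid1b was 0.976 ± 0.105, 1.09 ± 0.128 and 1.25 ± 0.150. Since the table appears to hold genes chosen on their change from the control, the ratios were not tested.

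**Figure D3:**
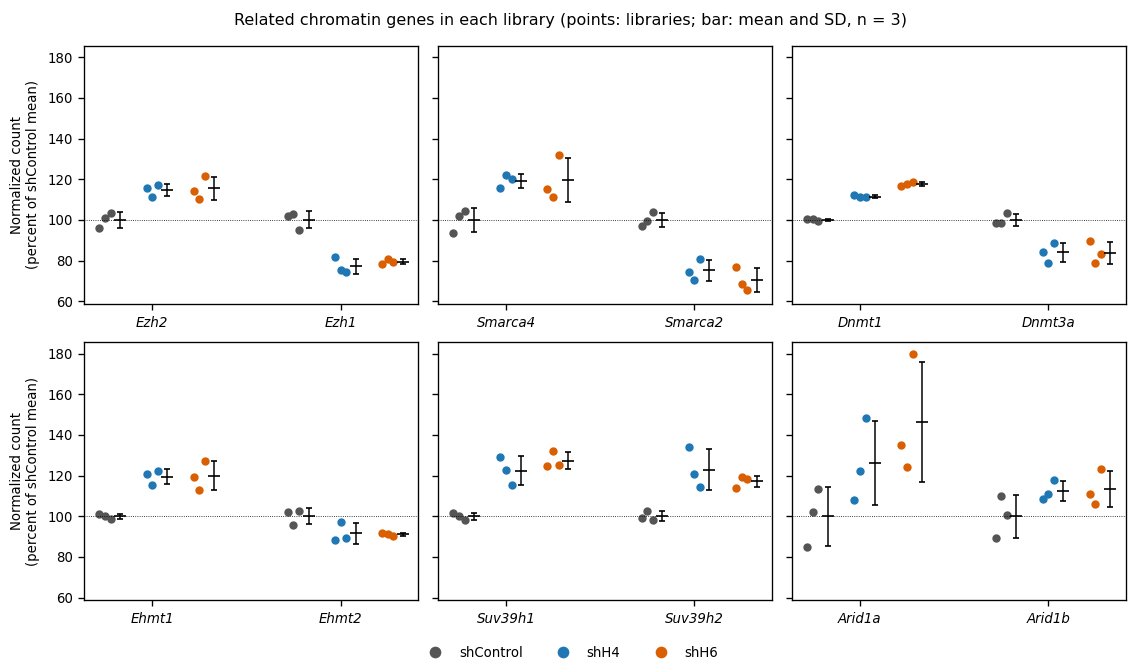
Normalized counts of 6 pairs of related genes in each library, as percent of the shControl mean of the gene (y axis), for shControl (grey), shH4 (blue) and shH6 (orange), with the mean and SD of the 3 libraries beside the points. Ezh2, Smarca4, Dnmt1 and Ehmt1 lie above 100% in all KD libraries and Ezh1, Smarca2, Dnmt3a and Ehmt2 below it, while Suv39h1 and Suv39h2, and Arid1a and Arid1b, lie on the same side.

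A direct comparison of shH6 with shH4 came next, the only difference that is not taken from the shControl libraries. These libraries still enter the shared estimate of the spread. The comparison is not free of the apparent selection of the table either, since all 5301 genes moved in 1 direction in both hairpins. Small differences between the hairpins may in part follow from that choice of genes. Of the 81 genes, 4 were higher in shH6 than in shH4 (4.94%) and 0 were lower, against 3.89% and 4.38% of all genes. The median difference was −0.001 on the log2 scale over the 81 genes and −0.005 over all listed genes. Resf1 was itself higher in shH6, by 0.19 (SE 0.043, limma adjusted p = 0.00984), so the KD was less deep with that hairpin. The share called higher was thus near that of the table and the share called lower was below it, and at an unadjusted limma p under 0.05, 6 genes were higher (7.41%) and 1 was lower (1.23%), against 10.3% and 11.2% of all genes.

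Setd7 had the lowest adjusted p of the 4 genes. It was at 2704, 2695 and 2674 in shControl, 2040, 1978 and 2023 with shH4 and 2265, 2230 and 2251 with shH6, in 3 separate levels with shControl highest and shH4 lowest. The difference between shH6 and shH4 was 0.16 (SE 0.035, limma adjusted p = 0.00836). It passed the threshold in all 17 alternative settings (limma adjusted p from 0.00151 to 0.0435).

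The calls of the other 3 genes depended on single libraries. Tet3 was at 1395, 1501 and 1422 in shControl, 1622, 1635 and 1766 with shH4 and 1879, 1809 and 2367 with shH6, with shH6 replicate 3 far above the others, and differed by 0.26 (SE 0.074, limma adjusted p = 0.0379). Without that replicate the difference was 0.14 (limma adjusted p = 0.104), and the call was also lost without shControl replicate 3 or any 1 of the shH4 libraries. Phf5a was at 851, 915 and 947 in shControl, 1081, 990 and 1014 with shH4 and 1163, 1191 and 1144 with shH6 and differed by 0.18 (SE 0.052, limma adjusted p = 0.0397), a call lost without shH4 replicate 2 or 3 or shH6 replicate 1 or 2 (limma adjusted p up to 0.135). Fam208b was at 2395, 2330 and 2358 in shControl, 2520, 2432 and 2542 with shH4 and 2707, 2696 and 2877 with shH6 and differed by 0.14 (SE 0.038, limma adjusted p = 0.0256), or by 0.11 without shH6 replicate 3 (limma adjusted p = 0.0862), and was also not past the threshold without shH4 replicate 1 or 2 or shH6 replicate 1. In these 3 genes the change from shControl was larger in shH6, and in Setd7 it was larger in shH4.

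**Figure D4:**
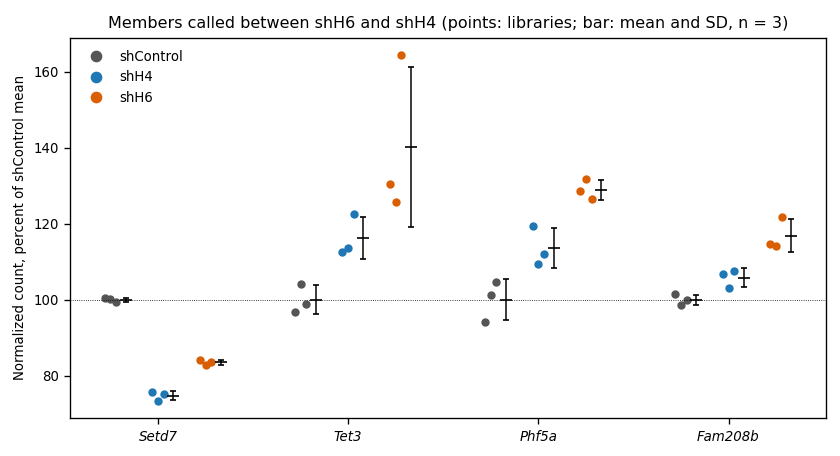
Normalized counts of the 4 genes called between shH6 and shH4 in each library, as percent of the shControl mean of the gene (y axis), with the mean and SD of the 3 libraries of a group beside the points. All 3 shH6 libraries lie above all 3 shH4 libraries for each gene, and the highest Tet3 point, 2367 normalized counts, is shH6 replicate 3.

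Replicate libraries agreed closely for most of the genes. The median coefficient of variation was 3.52% in shControl, 4.29% with shH4 and 4.82% with shH6, and the pooled SD within groups ranged from 0.0105 to 0.414 on the log2 scale, with a median of 0.0638. Among the 10 genes with the widest spread of the 79 shown by name, Mbd6, Arid1a, Ep300, Kat6a and Tet3 deviated together. All 5 were highest in replicate 3 within shH6 and lowest in replicate 1 within shControl. Hdac11, Sirt4 and Sirt5, of the same 10 genes, were instead lowest in replicate 3 within shH6. Of all 81 genes, 34 were highest in shH6 replicate 3 within shH6 and 35 were lowest in shControl replicate 1 within shControl. Those were the libraries with the fewest estimated reads (10.5 M) and the most (19.9 M), and the part of depth in the spread was not tested. Without shH6 replicate 3, the log2 fold change in shH6 was 0.28 for Ep300, 0.38 for Arid1a, 0.28 for Kat6a and 0.36 for Tet3, which still passed the threshold, and 0.28 for Mbd6, which did not (limma adjusted p = 0.0611).

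**Figure D5:**
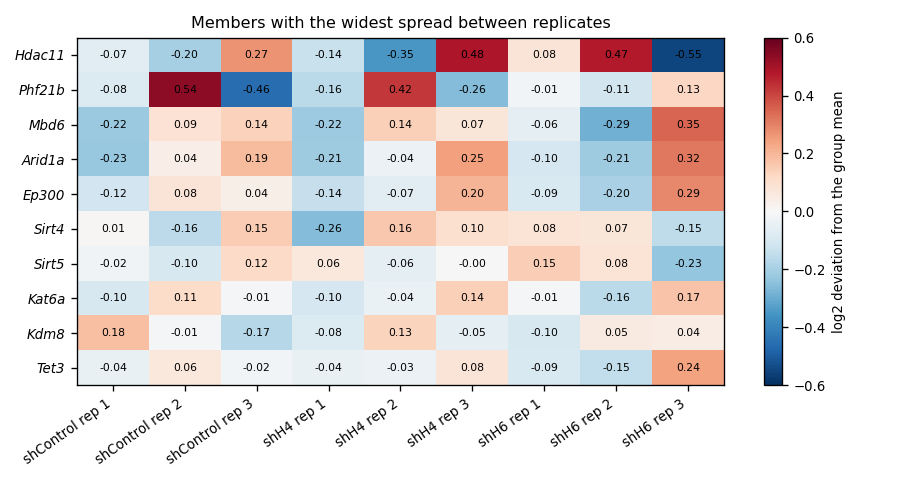
Deviation of each library from the mean of its group on the log2 scale (color and printed value) for the 10 genes with the widest spread of those shown by name (rows), by library (columns). Mbd6, Arid1a, Ep300, Kat6a and Tet3 share positive values in shH6 replicate 3 (0.17 to 0.35) and negative values in shControl replicate 1, whereas Hdac11 is lowest of the shH6 libraries in replicate 3 (−0.55).

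The complexes that these genes belong to have further subunits outside the symbol rule, and 175 such partner genes were listed by hand. Of these, 106 were in the table, and 96 rose and 8 fell in shH4 (90.6% and 7.55%) and 97 rose and 7 fell in shH6. Of all 5301 genes, 49.2% rose and 46.5% fell in shH4 and 49.1% and 46.9% in shH6, and the counts for single complexes that follow are read against these shares. The median log2 fold changes of the partner genes were 0.24 and 0.25. Remodeller partners rose without exception, 15 of 15 in each hairpin, including Srcap, the ATPase that loads histone H2A.Z (0.45 and 0.49). Of the acetyltransferase partners, 20 of 22 rose in shH4, including the scaffold Trrap (0.43 and 0.41), and the deubiquitinase Usp22 fell (−0.16 and −0.25).

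Corepressor subunits were mostly higher. Of 14 listed genes of the Sin3, NCoR, CoREST and NuRD complexes, 11 rose and 3 fell in each hairpin. COMPASS and other methyltransferase partners rose in 18 of 19 cases in each hairpin, and histone chaperones and assembly factors in 23 of 25 with shH4. The NuRD subunits Gatad2a and Gatad2b rose by 0.24 and 0.30 and by 0.22 and 0.27, and another, Mta3, fell, with −0.29 and −0.27. Among 11 Polycomb partners, Bmi1, a core subunit of Polycomb repressive complex 1, rose by 0.59 with shH4 and 0.46 with shH6, and only Yaf2, an alternative subunit of the same complex, fell (−0.30 and −0.25). Uhrf1, which brings DNMT1 to hemimethylated DNA, rose by 0.44 with shH4 and 0.53 with shH6, in the same direction as Dnmt1, and its paralogue Uhrf2 fell (−0.19 and −0.20).

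Proliferation genes were higher as well. Of 28 such genes, 23 were listed, all 23 had every KD library above every shControl library, and 22 rose in shH4 and 23 in shH6. In the whole table, 43.5% of genes had all 6 KD libraries above, and 49.2% and 49.1% rose. The median log2 fold changes of the proliferation genes were 0.26 in shH4 and 0.30 in shH6. Among them were the replication licensing gene Mcm5 (0.43 and 0.52) and the cyclin Ccne2 (0.61 and 0.52). Several of the genes that rose here (Ezh2, Dnmt1, Hells and Suv39h1) are known to be made mainly in dividing cells, and the part of cell cycle in their rise was not tested. Myc, whose transgene gave rise to the tumor line, was lower, with log2 fold changes of −0.35 with shH4 and −0.30 with shH6.

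Markers of other cell types were listed in small numbers. The endothelial markers Cdh5 and Pecam1 (2 of 3 listed) were at 21.4 and 4.76 normalized counts in shControl, and rose in shH4 by 2.91 and 2.31 on the log2 scale but were not past the threshold in shH6 (0.050 and 0.54). Of 6 immune markers, Cd68 and Itgb2 were listed and fell in both hairpins, of 5 mesenchymal markers Pdgfra was higher and Zeb1 lower, and of 2 adipocyte markers none was listed. Krt8 (log2 fold change −0.25 with shH4 and −0.079 with shH6) and Krt18 (−0.32 with shH4 and −0.069 with shH6) fell in shH4 and were not past the threshold in shH6. In the direct comparison of shH6 with shH4, 5 of the 8 listed markers differed (Cdh5, Pecam1, Itgb2, Krt8 and Krt18). The summed endothelial markers were at 20.1 to 30.8 normalized counts in shControl, 174 to 208 with shH4 and 26 to 31.2 with shH6. The summed epithelial markers were at 26585 to 28995, 22386 to 23863 and 24795 to 27873, the immune markers at 3482 to 3666, 2362 to 2513 and 2856 to 3053, and the mesenchymal markers at 1870 to 2001, 1764 to 1914 and 1840 to 1883, in the same order. The part of these markers in the changes of the chromatin genes was not tested. In bulk RNA, fewer cells of a type and less RNA per cell cannot be told apart.

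Transcript length and GC content were compared with the change as a further description. Over the 81 genes, the rank correlation with the mean log2 fold change of both hairpins was 0.0521 for transcript length and 0.0859 for GC content, and over the 5258 annotated genes it was 0.138 and −0.0872. Genes share their libraries, so these values carry no test. The mean level over the 9 libraries ran from 15.8 to 9383 normalized counts among the chromatin genes, with a median of 1424, against 947 for all listed genes.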

How the data were processed

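RNA-seq of total RNA from 9 libraries (3 groups of 3) was analysed. Per the labels, the libraries were made with a stranded total RNA kit, reads were aligned with STAR 2.7.8a to mm39 and processed in Partek, and DESeq2 was used. The counting annotation and its use of strand are not given in the sources used here. The deposited values are a signal per gene, estimated reads divided by a size factor for each library (median ratio), as read from the values: size factors ran from 0.802 to 1.46, and 75.5 to 80.7% of values from 1 to 100 were whole multiples of a read (within 0.03 reads). Whole reads were therefore not recovered, and no count test was run.

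Symbols, types and lengths came from GENCODE M21 (5258 of 5301 genes matched by identifier), whose build, GRCm38, differs from that of the alignment, so gene coordinates are not printed. The test was limma (version 3.58.1, R 4.3.3) on log2(value + 1), with a mean per group over all 9 libraries. It used empirical Bayes moderation with a trend and Benjamini-Hochberg adjustment over all 5301 genes, without a further filter. The adjustment takes no account of the apparent selection of these genes before deposit. The fit was tested on simulated data. Fold changes on this scale understate the change of low genes.

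The members, groups and gene lists were chosen with earlier results of these data known. Named genes were all H3K9 silencing members, the 6 members that rose and the 6 that fell most in both hairpins without overlap of libraries, members called between the hairpins, the highest member per length in each other group, and paralogues or alternative subunits of these. Members and partners outside this rule are given by their fold changes and were named after their values were seen. Alternatives were pseudocounts of 0.5 and 10, a minimum of 10 in every library, upper quartile or column total scaling, library weights, the replicate number as a block, a fit without the group not compared and leaving out each library. The values of 2 of the 81 genes are not reported here by name, and they remain in the counts and medians.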

Additional observations from a re-analysis of the deposited data

Results flagged for a closer look

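Between the hairpins, 4 chromatin genes differed in the direct test, all higher in shH6 (4.94% of 81, against 3.89% higher and 4.38% lower over all 5301 genes). The difference was 0.26 on the log2 scale for Tet3, 0.181 for Phf5a, 0.159 for Setd7 and 0.143 for Fam208b, with limma adjusted p-values of 0.0379, 0.0397, 0.00836 and 0.0256. For Setd7 the fall from shControl was larger in shH4, and for the other genes the rise was larger in shH6.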

How the results depend on the processing

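Of 2344 values under 17 alternative settings, 2254 matched the reported result in direction and call (or, for a count or median, in size). Of the others, 53 lost a call, 12 gained one, 25 moved in size and 0 reversed. All listed genes already moved in 1 direction in both hairpins, so the lack of reversals says little. The number of chromatin genes called between shH6 and shH4, 4 as reported, ran from 1 to 4 over the fits that each left out a library, with 1 without shH4 replicate 2. The median log2 fold change of the 81 genes was 0.116 in shH4 and 0.129 in shH6 after upper quartile scaling, 0.204 and 0.223 after scaling to equal column totals, and 0.17 in shH6 with library weights. Leaving out a library gave medians from 0.173 to 0.194 in shH4 and from 0.168 to 0.185 in shH6. Upper quartile scaling shifted the median of all genes by −0.061 and −0.052, and 44 and 47 of the 81 genes were then called higher and 24 lower in each hairpin, with no change of direction. After upper quartile scaling, and also without shH4 replicate 1, 3 in place of 6 of the PHD finger, ING and ARID genes were called higher in shH4. The cause was not tested. With the replicate block, 78 genes were called in shH4, 78 in shH6, 75 by both and 3 between the hairpins, when Phf5a lost its call between the hairpins. The replicate numbers did not pair the libraries, since the correlations of same-numbered libraries ran from −0.155 to 0.108 over 9 pairs. Depth per library outside the listed genes is unknown, so no floor was set for genes with low counts.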
